A study of Mus musculus with 6 samples.

Results

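The genes described here build and maintain the primary cilium, and they code for intraflagellar transport proteins, ciliary motors, the BBSome and its helpers, ARL GTPases, transition zone proteins and adapters of ciliary membrane traffic. The 49 genes were taken by name from the annotation of the array, on which all of them were present with 72 of the 55681 probes, among 27373 named genes in all. They were listed by their function, with earlier results of these data known. Expression was measured in wild-type mouse cerebella of strain CD1 at postnatal days 1 to 3 per the labels, whereas the study's methods give days 0 and 1 and C57BL/6 for wild-type mice. Cerebella of either sex were pooled, and the samples hold 50000 cells each, 1 array per sample. The A+/G+ cells (3 samples) carry ACSA-2, the astrocyte surface antigen encoded by Atp1b2, together with the glutamate transporter GLAST, and were selected with ACSA-2 beads alone. The A-/G+ cells (3 samples) were selected for GLAST after the cells carrying L1CAM, ACSA-2, CD45, PSA-NCAM or Ter119 had been depleted. Both fractions thus stand for enriched mixtures of neonatal astroglial precursors, and the steps of the selection differ between them.

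The primary cilium is a solitary antenna on the cell surface, built on a microtubule axoneme that grows from a basal body. Intraflagellar transport (IFT) carries cargo along it, with the IFT-B complex and kinesin-2 moving toward the tip and the IFT-A complex and dynein-2 moving back. The BBSome couples membrane proteins to these trains, and the transition zone at the base gates what enters. Hedgehog signaling in vertebrates runs through the primary cilium, and in the neonatal cerebellum Sonic hedgehog from Purkinje cells drives the proliferation of granule cell precursors and of progenitors in the white matter. Most of these genes also serve motile cilia, such as those of ependymal cells, which carry further dyneins and spokes in addition.

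Many ciliary genes are known targets of RFX transcription factors, which bind the X-box, a motif of inverted arms. RefSeq promoter windows of GRCm38.p6, from 250 bases before to 50 bases after an annotated start, were found for 44 of the 49 genes (52 windows). The X-box was searched as GTTNCC followed after 1 to 3 bases by GGNAAC, which reads the same on both strands. It stood in 6 of the 52 windows (11.5%), compared with 0.776% of all 32851 windows. The arm GTTGCC by itself, on either strand, stood in 21 windows (40.4%), compared with 12.5% of all windows. Every X-box listed here has such an arm on at least 1 strand, so that the counts overlap. The 6 matches are shown with the X-box in capitals, 5′ to 3′ on the strand of the gene, because this motif was more frequent in these windows than in all windows, although most of the 49 genes lack it.
Ift57, chr16:49699194-49699286, + strand, beginning 60 bases before the start: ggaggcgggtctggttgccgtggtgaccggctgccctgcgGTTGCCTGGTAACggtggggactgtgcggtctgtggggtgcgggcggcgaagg
Bbs7, chr3:36613489-36613518, - strand, 121 bases before: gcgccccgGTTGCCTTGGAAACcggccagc
Tctn3, chr19:40612351-40612379, - strand, 140 bases before: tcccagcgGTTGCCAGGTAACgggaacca
Mks1, chr11:87853183-87853212, + strand, 24 bases before: gcgtctccGTTGCCAGGGGAACgaggcacc
Tctn1, chr5:122264411-122264432, - strand, 36 bases after: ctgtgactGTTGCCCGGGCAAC
Ahi1, chr10:20952560-20952589, + strand, 21 bases after: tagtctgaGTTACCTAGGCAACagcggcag
The match of Ift57 is shown with 40 bases on either side, and the others with 8 or up to the end of the window. Of the other IFT and BBS genes listed further down, 3 of 16 windows held an X-box and 5 the arm. Of the genes of the motile axoneme, 0 of 28 windows held an X-box, whereas 11 held the arm. These matches describe the letters of the windows and are no record of binding.

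Each array gave 1 intensity per spot in a single dye, and its log2 values were quantile normalized. On A+/G+ arrays 26478 to 26664 probes were well above background by the scanner's own mark, and on A-/G+ arrays 18349 to 24738 were. The 75th percentile of the intensity before normalization was 332 to 334 on A+/G+ arrays and 56.6 to 251 on A-/G+ arrays. Slide 1 carried the A+/G+ samples and slide 2 the A-/G+ samples, and the effects of the slide and of the fraction cannot be told apart. As a check of the sort, Atp1b2 had a log2 difference of 2.16 in favor of A+/G+ (limma, adjusted p = 0.00725), whereas Slc1a3, which encodes GLAST, differed by -1.19 and did not pass (adjusted p = 0.0733). Each of the 10 listed astroglial genes was above background by the same mark on every array. Precision is limited by the number of arrays, since 3 against 3 allow an exact permutation test no p below 0.1 (two-sided). In bulk samples such as these, fewer cells of a type and less RNA per cell cannot be told apart.

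Primary cilium genes were expressed in both fractions. By the brightest probe of each gene, 45 of the 49 stood well above background on each of the 6 arrays, whereas Wdr19, an IFT-A subunit, did so on none. Ift140 reached this mark on 3 A+/G+ arrays and 1 A-/G+ array, Cep290 likewise on 3 and 1, and Gpr161 on 2 of each. The median log2 level over the 49 genes was 8.93 to 8.98 on A+/G+ arrays and 8.81 to 8.82 on A-/G+ arrays, compared with 5.52 to 5.53 and 5.19 to 5.33 for the median over all named genes. Summed over the 49 genes on the linear scale, the level was 36290 to 38934 in A+/G+ and 32957 to 33854 in A-/G+.

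**Figure D1:**
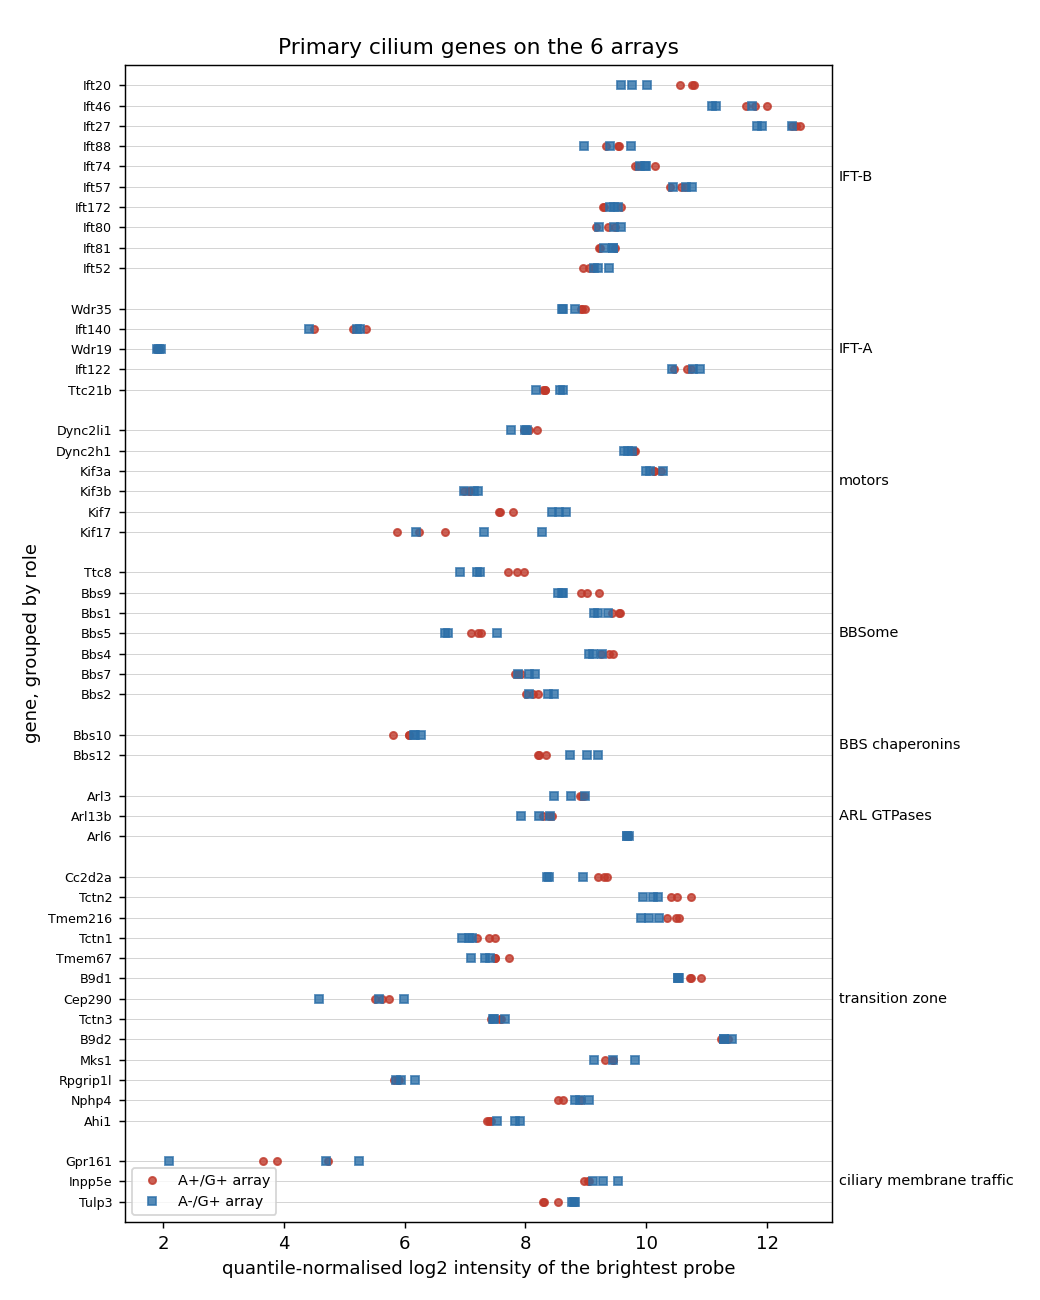
Quantile-normalized log2 intensity (horizontal axis) of the brightest probe of each of the 49 genes (vertical axis, grouped by role) on the 3 A+/G+ arrays (red circles) and the 3 A-/G+ arrays (blue squares). For 30 genes the arrays of the fractions overlap, and no gene's means lie 2-fold or more apart.

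Few of these genes passed the test between the fractions, and those that did went both ways. Of the 49 genes, 3 rose in A+/G+ (Ift20, Ttc8 and Bbs9) and 3 fell (Kif7, Bbs12 and Tulp3) at an adjusted p of at most 0.05 over all probes (limma with Benjamini-Hochberg adjustment). Over all named genes, 6.79% were called higher and 4.9% lower, and among the 12145 genes well above background on all arrays, 8.5% and 10% were. Counted by probe, 4.65% of all probes were called higher and 4.64% lower. The share among primary cilium genes was 3 of 49 in either direction and thus near the background. None reached the stricter limit of the study's methods, with medians at least 4-fold apart, which 2.37% of named genes passed as higher and 0.427% as lower. Without an adjustment 14 of the 49 had a p under 0.05 (10 higher, 4 lower), compared with 28.4% of all named genes.

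The differences were also small. The median difference of the 49 genes, A+/G+ minus A-/G+, was 0.0036 on the log2 scale, compared with -0.071 over the genes well above background on all arrays and -0.036 over all named genes. Taken without sign, the median difference was 0.194 for the 49 genes and 0.320 for the genes well above background. No mean differed 2-fold or more for any of the 49 genes, whereas 12.9% of the genes well above background and 16.6% of all named genes did. The 95% interval of the difference lay within 2-fold in either direction for 40 of the 49 genes, among them 38 of the 43 that did not pass. The other 5 of these 43 were Ift46, Kif17, Cc2d2a, Cep290 and Gpr161, for which a 2-fold difference lies within the interval. The means were higher in A+/G+ for 25 genes and lower for 24. In 12 genes the lowest A+/G+ value exceeded the highest A-/G+ value (17.6% of all named genes), in 7 the reverse held (23.5% of all named genes), and in 30 the arrays overlapped.

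**Figure D2:**
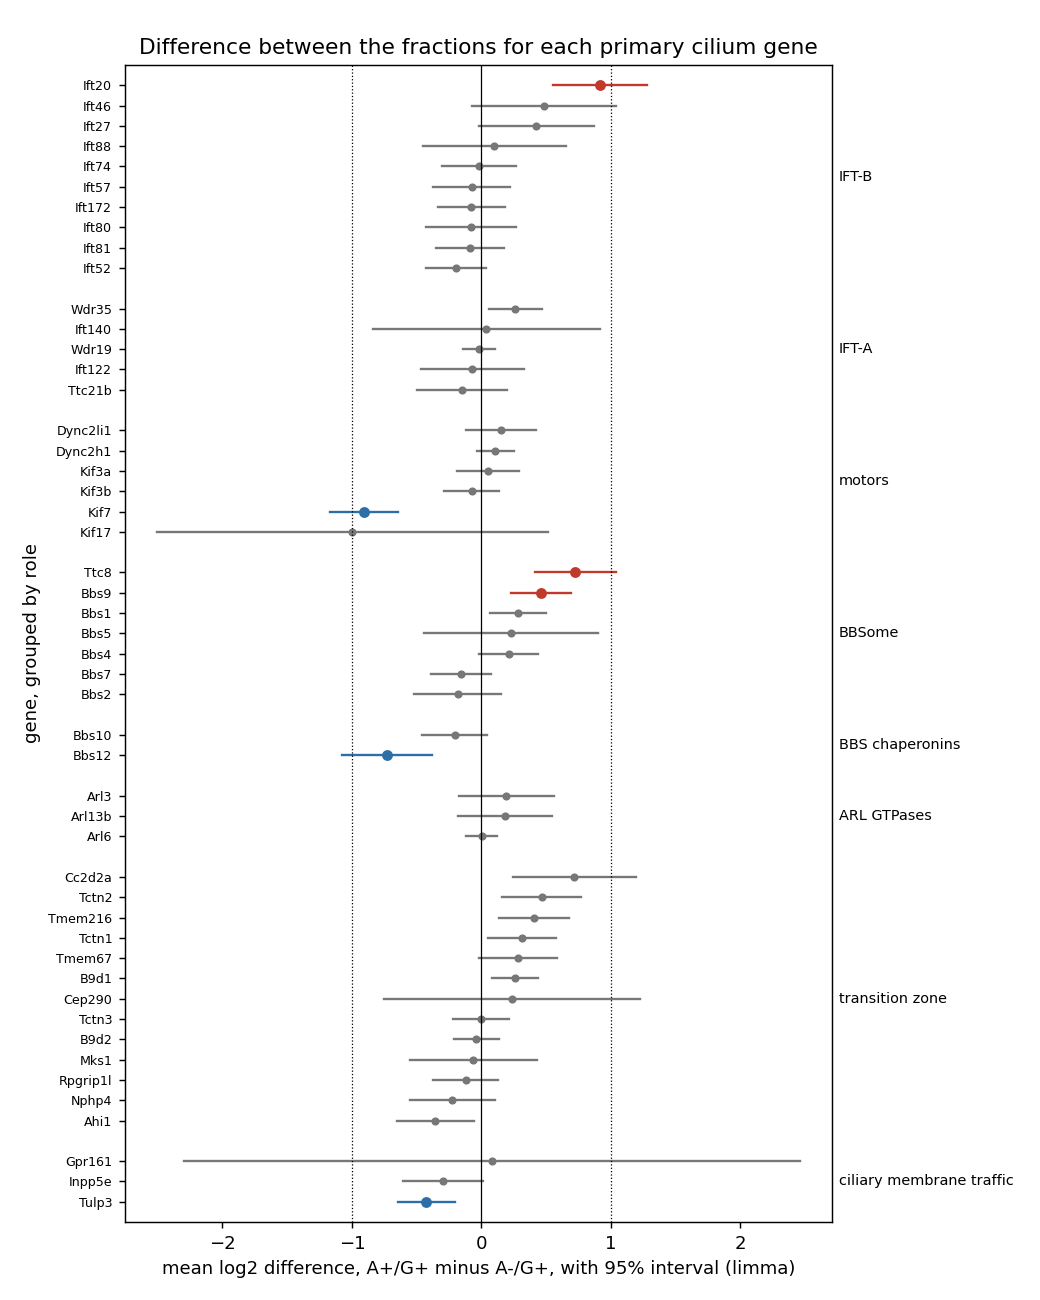
Mean log2 difference (horizontal axis, A+/G+ minus A-/G+) of each gene (vertical axis, grouped by role), with its 95% interval from limma; dotted lines mark 2-fold. Red and blue points passed the adjusted p limit as higher or lower in A+/G+ (3 genes each), and gray points did not; 40 of 49 intervals lie between the dotted lines.

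Among the IFT-B subunits, which form the train that moves toward the tip, 1 of 10 rose, 0 fell, and the median difference was -0.05. Ift20, the subunit that is also found at the Golgi and takes part in sending membrane proteins to the cilium, had log2 levels of 10.78, 10.55 and 10.76 in A+/G+ and 9.76, 10.01 and 9.57 in A-/G+. The fractions thus did not overlap. The difference of means was 0.92 (SE 0.14, adjusted p = 0.0251, limma) with a 2.01-fold distance of the medians, and it was the widest difference upward among the 49 genes. The probe lies in the transcript of Ift20 at chr11:78353480-78353539 of mm9. Ift27, a small GTPase of the train, and Ift46 had differences of 0.42 (adjusted p = 0.235, limma) and 0.48 (adjusted p = 0.276, limma), but A-/G+ replicate 3 reached the A+/G+ range for both.

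The means of the other 7 IFT-B genes lay closer together. Ift88, the subunit lost in the Oak Ridge polycystic kidney mouse, had log2 levels of 9.53, 9.34 and 9.55 in A+/G+ and 9.74, 9.40 and 8.97 in A-/G+. The A-/G+ arrays spanned the A+/G+ arrays, and the difference was 0.10 with a 95% interval from -0.45 to 0.65. Ift52, Ift57, Ift74, Ift80, Ift81 and Ift172 had differences from -0.19 (Ift52) to -0.02 (Ift74), and none passed. For Ift57, whose promoter holds an X-box, the interval ran from -0.37 to 0.22.

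Of the IFT-A subunits, which serve the return from the tip and the entry of membrane receptors, 0 of 5 rose or fell (1 with an unadjusted limma p under 0.05). Wdr35 had log2 levels of 8.94, 8.92 and 8.98 in A+/G+ and 8.61, 8.82 and 8.62 in A-/G+. Its arrays did not overlap, but the difference of 0.26 did not pass (adjusted p = 0.122, limma). Ift122 differed by -0.07 and Ttc21b by -0.15. For Ift140 the interval ran from -0.84 to 0.91, and no difference can be given for Wdr19.

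Of the 6 motor genes, 1 fell. Kif7, a kinesin that organizes the tip of the cilium and there regulates the GLI factors of the Hedgehog pathway, had log2 levels of 7.56, 7.80 and 7.58 in A+/G+ and 8.44, 8.67 and 8.55 in A-/G+. No A+/G+ array came near an A-/G+ array. The difference was -0.91 (SE 0.10, adjusted p = 0.0128, limma), with the medians 1.96-fold apart. The probe lies at chr7:86843420-86843479 of mm9, and the other Kif7 probe was well above background on 1 of 6 arrays only. With the mean of both probes the Kif7 difference was -0.51 and did not pass (adjusted p = 0.46, limma). The motors of the trains themselves differed less. Kif3a and Kif3b, subunits of heterotrimeric kinesin-2, differed by 0.05 and -0.08, and Dync2h1 and Dync2li1, the heavy chain and a light intermediate chain of dynein-2, by 0.11 and 0.15, without passing.

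Kif17, a homodimeric kinesin-2, had the widest difference downward without passing. Its log2 levels were 6.23, 5.87 and 6.67 in A+/G+ and 8.28, 7.31 and 6.18 in A-/G+. The A-/G+ replicates spread over more than the difference of -0.997 (adjusted p = 0.408, limma), with an SD of 1.05 (n = 3). Its other 2 probes, neither of them well above background on all arrays, had differences of 1.38 and 0.65 in the opposite direction.

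In the BBSome 2 of 7 genes rose and 0 fell, with a median difference of 0.23, whereas 8.5% and 10% of the genes well above background on all arrays did. Ttc8, also known as Bbs8, had log2 levels of 7.87, 7.72 and 7.97 in A+/G+ and 6.92, 7.20 and 7.25 in A-/G+, and the fractions did not overlap. The difference was 0.73 (SE 0.12, adjusted p = 0.031, limma), at chr12:100221132-100221191 of mm9. Bbs9, a scaffold of the complex, had log2 levels of 8.93, 9.01 and 9.21 in A+/G+ and 8.60, 8.62 and 8.54 in A-/G+. The difference was 0.46 (SE 0.09, adjusted p = 0.0451, limma), at chr9:22692601-22692660 of mm9. The A-/G+ arrays lay close together and below every A+/G+ array.

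The other BBSome subunits did not pass. Bbs1, which binds the GTPase ARL6, had a difference of 0.28 (adjusted p = 0.122, limma) without overlap between the fractions, and its other probe differed by 0.22. Bbs4 and Bbs5 had differences of 0.21 and 0.23, and Bbs2 and Bbs7 of -0.18 and -0.16. The chaperonin-like genes Bbs10 and Bbs12, whose products help to assemble the BBSome, both had lower means in A+/G+. Bbs12 had log2 levels of 8.20, 8.23 and 8.34 in A+/G+ and 9.20, 9.01 and 8.74 in A-/G+. Each A-/G+ array exceeded the A+/G+ arrays, and the difference was -0.73 (SE 0.13, adjusted p = 0.0392, limma), at chr3:37220248-37220307 of mm9. Bbs10 differed by -0.21 (adjusted p = 0.299, limma).

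Of the ARL GTPases, 0 of 3 passed, and 0 had an unadjusted limma p under 0.05. Arl6, the GTPase that recruits the BBSome to membranes, had nearly the same level on all arrays, at 9.69, 9.70 and 9.69 in A+/G+ and 9.68, 9.71 and 9.68 in A-/G+. Its difference was 0.004 with an interval from -0.12 to 0.12. Arl13b, a marker of the ciliary membrane, differed by 0.18, and Arl3, which releases lipidated cargo in the cilium, by 0.19. The other probe of Arl13b gave 0.48 (adjusted p = 0.0879, limma), without overlap between the fractions.

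No transition zone gene passed in limma (0 of 13). Unadjusted, 5 were higher and 1 lower at a limma p under 0.05. Of the 12145 genes well above background on all arrays, 2230 were higher and 3087 lower at that limit. The 5 transition zone genes that were higher unadjusted include 4 with a limma adjusted p above 0.05 and at most 0.1. The share of all genes in this range was not counted. The median difference of the transition zone group was 0.24. Cc2d2a, a component of the tectonic complex at the base of the cilium, had log2 levels of 9.35, 9.30 and 9.20 in A+/G+ and 8.39, 8.95 and 8.35 in A-/G+. The arrays did not overlap, and the difference was 0.72 (SE 0.19, adjusted p = 0.0852, limma). Its other probe, also well above background on all arrays, gave 0.49 (adjusted p = 0.0571, limma).

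Tctn2, Tmem216 and B9d1, further members of this complex, had differences of 0.47 (adjusted p = 0.0819, limma), 0.41 (adjusted p = 0.0868, limma) and 0.26 (adjusted p = 0.0924, limma). In each of them the fractions were separate, with A+/G+ above, as also in Tctn1 (0.32) and Tmem67 (0.28). Other genes of the same structure did not share this order. Tctn3 differed by -0.001 with an interval from -0.22 to 0.22, B9d2 by -0.04 and Mks1 by -0.06. Nphp4 and Rpgrip1l had lower means in A+/G+, by -0.22 and -0.12. Ahi1, a Joubert syndrome gene, had log2 levels of 7.40, 7.36 and 7.43 in A+/G+ and 7.83, 7.91 and 7.53 in A-/G+, and its difference of -0.36 did not pass (adjusted p = 0.145, limma). Cep290, whose product links the microtubules to the membrane, differed by 0.24, with an interval from -0.75 to 1.23.

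Of the genes of ciliary membrane traffic, 1 of 3 fell. Tulp3, an adapter that brings G protein-coupled receptors into the cilium with IFT-A, had log2 levels of 8.29, 8.30 and 8.53 in A+/G+ and 8.82, 8.78 and 8.81 in A-/G+. The A-/G+ arrays lay within a narrow range above every A+/G+ array, and the difference was -0.43 (SE 0.09, adjusted p = 0.0471, limma), at chr6:128271152-128271161 of mm9, where the annotation gives only a short stretch of the probe. Inpp5e, the phosphatase that sets the lipids of the ciliary membrane, differed by -0.29 (adjusted p = 0.238, limma) without overlap, while another of its probes gave 0.15. Gpr161, a ciliary receptor that restrains Hedgehog signaling, was too dim for a comparison, with an interval from -2.29 to 2.46.

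**Figure D3:**
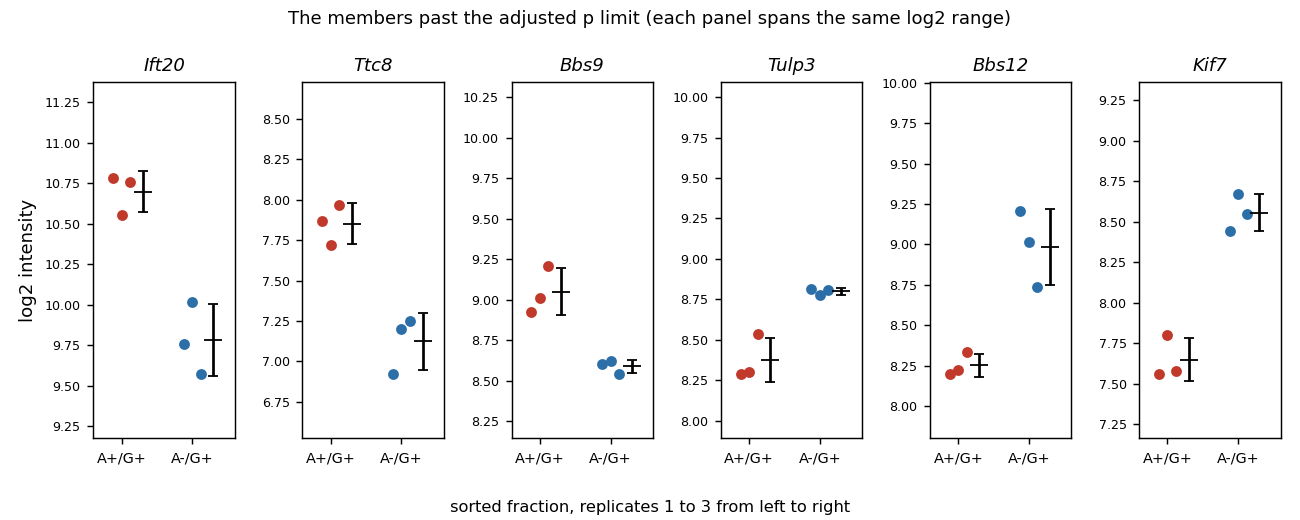
Log2 intensity (vertical axis, the same span in each panel) of the 6 genes past the adjusted p limit on each array of A+/G+ (red) and A-/G+ (blue), with the mean and SD of the 3 replicates in black beside the points. In each panel the fractions do not overlap, with Ift20, Ttc8 and Bbs9 higher in A+/G+ and Tulp3, Bbs12 and Kif7 lower.

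With each array left out in turn, Kif7 passed in 4 of the 6 fits, Ift20 and Ttc8 in 2 each, Bbs12 in 1, and Bbs9 and Tulp3 in 0, all with the direction kept. When the arrays were aligned only on their 75th percentiles and not quantile normalized, 0 of the 49 genes passed in either direction by limma. At an unadjusted limma p under 0.05, 3 were higher and 3 lower. Wdr19, well above background on no array, was among the lower ones, with a difference of -1.64 in this setting (limma adjusted p = 0.0501). Ift20 (0.90), Kif7 (-0.90), Ttc8 (0.72) and Bbs12 (-0.70) kept their differences and missed the limit narrowly, at a limma adjusted p of 0.0501 to 0.0505. Bbs9 (0.0977) and Tulp3 (0.152) missed it by more. The promoter windows of the 6 genes that passed in the main fit held neither an X-box nor the arm GTTGCC. None of the 6 genes with an X-box passed. With so few genes in either group this lack of overlap says little, and a link was not tested.

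Replicates of the 49 genes were close to one another. The median SD was 0.10 among A+/G+ arrays and 0.15 among A-/G+ arrays, compared with 0.095 and 0.226 for the genes well above background on all arrays. The SD was largest for Gpr161, at 0.57 in A+/G+ and 1.68 in A-/G+. In 20 of the 49 genes there were further probes, 23 in all, of which 0 passed. Of these, 7 carried the background mark on every array, and 5 of the 7 had the direction of the brightest probe. The exceptions were probes of Kif3a and Inpp5e.

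Other genes of the primary cilium leaned in a direction that depended on the list. Of 17 other IFT and BBS genes, 15 had higher means in A+/G+ (11670 of all 27373 named genes), with a median difference of 0.27. Their summed level on the linear scale did not share this lean, at 19778.5 to 21517 in A+/G+ and 20650.5 to 30279.8 in A-/G+. Only Tctex1d2, a light chain of dynein-2, rose (0.52, adjusted p = 0.0276, limma), and 0 fell. Without an adjustment, 8 were higher and 1 lower at a limma p under 0.05, compared with 4076 and 3694 of all named genes. In 8 every A+/G+ array stood above every A-/G+ array (17.6% of all named genes), and in 1 the reverse held (23.5%). Of 23 other transition zone and basal body genes, 2 rose and 4 fell, compared with 6.79% and 4.9% of all named genes. The median difference was -0.14. Among genes well above background on all arrays, 8.5% rose and 10% fell. Without an adjustment, 2 of the 23 were higher and 10 lower at a limma p under 0.05. In 2 every A+/G+ array stood above every A-/G+ array, and in 10 the reverse held. Tmem107, a transition zone protein that is also among the ependymal genes listed below, had log2 levels of 10.53, 10.76 and 11.17 in A+/G+. In A-/G+ they were 9.41, 9.28 and 9.73, a difference of 1.35 (adjusted p = 0.0267, limma). Rpgr, a regulator of the transition zone, rose by 0.43 (adjusted p = 0.0456, limma).

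Those that fell belong in part to the compartment next to the transition zone. Nek8, a kinase of the inversin compartment, had log2 levels of 8.91, 9.17 and 9.26 in A+/G+ and 10.51, 10.35 and 10.004 in A-/G+, a difference of -1.17 (adjusted p = 0.0224, limma). Invs itself, which encodes inversin, differed by -0.54 (adjusted p = 0.0364, limma), Cep97, a suppressor of cilium assembly, by -0.76 (adjusted p = 0.0308, limma) and Fbf1, of the distal appendages of the basal body, by -0.58 (adjusted p = 0.0396, limma). All 4 were lower on every A+/G+ array than on any A-/G+ array.

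Of 17 genes of ciliary receptors and signaling, 1 rose and 1 fell, with a median difference of -0.05. Gli1, a target and effector of Hedgehog signaling, had log2 levels of 11.005, 11.15 and 11.17 in A+/G+ and 13.40, 13.05 and 12.63 in A-/G+. The A+/G+ arrays lay far below the A-/G+ arrays, with a difference of -1.92 (SE 0.21, adjusted p = 0.0122, limma). Mchr1, a receptor found in neuronal cilia, rose (adjusted p = 0.0315, limma), but no A-/G+ array was well above background for it, and it can only be given as at least 1.08-fold higher in A+/G+. Such a bound is the mean of the brighter fraction over the mean, per array of the dimmer one, of the lowest signal that carried the mark, or of the probe itself where that was higher. Smo, the Hedgehog transducer that enters the cilium, differed by 0.11 and did not pass (adjusted p = 0.527, limma).

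The genes listed for the axoneme of motile cilia had wider differences than those above. Of 28 genes of the motile axoneme on the array, 17 rose in A+/G+, 12 of them past the 4-fold limit, and 0 fell, with a median difference of 2.31. Over all named genes, 6.79% rose, 2.37% rose past the 4-fold limit, and 4.9% fell. In 24 of the 28 the fractions were separate, with A+/G+ above (17.6% of all named genes). Their summed level on the linear scale was 12795 to 19770 in A+/G+ and 2880 to 5071 in A-/G+, and for 5 of them no A-/G+ array was well above background. Of 10 ependymal genes, 5 rose and 0 fell (median difference 3.17), at a summed level of 16299 to 22536 compared with 2489 to 6789. Foxj1 stands in this list and in that of the transcription factors. Tmem107 stands in this list and in that of the other transition zone and basal body genes. Of 8 choroid plexus genes, 0 rose or fell by limma (1 lower at an unadjusted p under 0.05), with a median difference of -0.45. The part of these cells in the differences of the primary cilium genes was not tested.

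**Figure D4:**
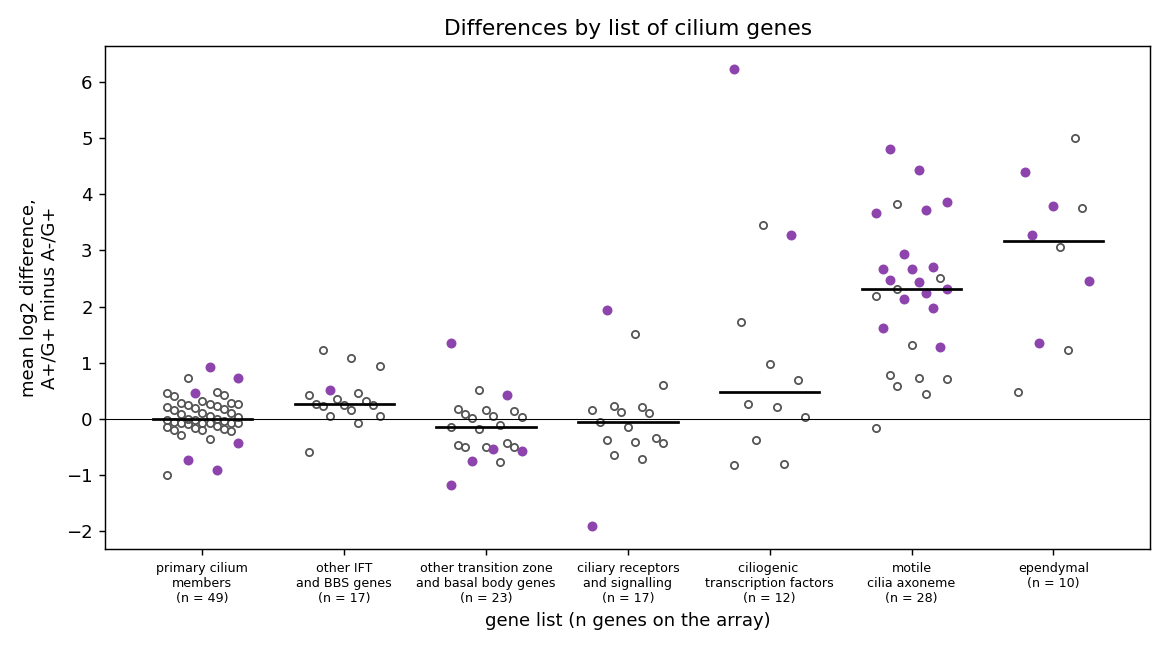
Mean log2 difference (vertical axis, A+/G+ minus A-/G+) of each gene, by list (horizontal axis), with filled points for genes past the adjusted p limit and a bar at the median. The 49 primary cilium genes lie between -0.997 and 0.918 around a median near 0, while the motile axoneme and ependymal genes center on 2.31 and 3.17.

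Of 12 transcription factors of ciliogenesis, 2 rose in A+/G+ and 0 fell, compared with 6.79% and 4.9% of all named genes. Their means were higher in A+/G+ for 9 and lower for 3. The 2 that rose were Foxj1 and Foxn4. Mcidas, Gmnc, Myb and Trp73, also listed for the motile program, did not pass. Foxj1, the factor that drives the motile program, had log2 levels of 9.83, 9.83 and 10.40 in A+/G+ and 6.83, 5.88 and 7.54 in A-/G+, a difference of 3.27 (SE 0.47, adjusted p = 0.0216, limma) with no overlap. Foxn4, listed for its part in multiciliated cells and also known from neuronal precursors, rose (adjusted p = 0.0289, limma), from log2 levels of 2.21, 2.10 and 5.42 in A-/G+, of which only the last was well above background, to 9.20, 9.25 and 9.99 in A+/G+. None of the 6 Rfx genes passed. Rfx3 had log2 levels of 6.54, 6.18 and 6.72 in A+/G+ and 7.44, 6.96 and 7.46 in A-/G+, a difference of -0.80 (adjusted p = 0.0894, limma) with all A-/G+ arrays above. Rfx4 differed by -0.82 (adjusted p = 0.194, limma), Rfx1 by 0.20, Rfx7 by 0.03, Rfx2 by 0.98 and Rfx5 by 0.70. The last 3 were not well above background on all arrays.

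Markers of further cell types moved with the fractions as well, and their counts stand beside 6.79% of all named genes that rose and 4.9% that fell. Of the 10 astroglial genes, 4 rose and 1 fell, with a median difference of 0.46, and Slc1a3 had the lowest difference among them. Of 10 Bergmann glia and radial glia genes, 9 fell in A+/G+ (median difference -2.42), at a summed level of 24678 to 28075 in A+/G+ and 33069 to 46212 in A-/G+. The study reports Npy, Mybpc1, Gria1, Gdf10 and Wif1 of this list as A-/G+ genes from these same arrays. The count is therefore no independent reading. Of 10 Purkinje cell genes, 6 rose (median 2.54), and of 6 oligodendrocyte precursor genes, 3 rose (median 1.43). In granule neuron genes 0 of 8 rose and 1 fell, in pan-neuronal genes 0 of 10 passed (4 higher at an unadjusted limma p under 0.05), and in endothelial genes 1 of 6 rose. None of 6 microglial and 4 erythroid genes passed, with 1 and 3 higher at an unadjusted p under 0.05. The part of these cells in the values of the primary cilium genes was not tested.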

How the data were processed

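Gene expression of 3 A+/G+ and 3 A-/G+ samples was profiled on 1-color Agilent arrays with Cy3. The authors deposited each array's scanner output, with background-corrected intensity per spot (Feature Extraction 10.7.3.1 per the file headers), and a quantile-normalized log2 table, which was used as an alternative. Up to 50 ng RNA was amplified, as stated in the labels.

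For the present report, control spots (leaving 59305 of 62976 spots) and spots marked as outliers were removed. The log2 intensities were quantile normalized, and the spots of a probe were averaged. All 55681 probes were fitted with limma 3.58.1 in R 4.3.3 without a filter on dim probes, and p-values were Benjamini-Hochberg adjusted over all of them. A gene takes the value of its probe with the highest mean. The labels call the samples biological replicates. The 49 genes and all marker lists were chosen with earlier results of these data known. Named are all 49 genes, up to 5 genes past an adjusted p of 0.05 per direction in each list of other primary cilium genes, Atp1b2, Slc1a3, Foxj1 and the Rfx genes; Foxn4, Smo and the genes behind the list counts were named after their values were seen. The array's annotation places probes on mm9, whereas promoter windows come from RefSeq on GRCm38.p6, and the builds were not mixed.

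The fit was repeated with arrays aligned on their 75th percentiles, with normexp (offset 50), with the deposited log2 values, without probes dim on any array, with outlier spots kept, and with trend and robust variance, the methods' Student test, the mean of all probes, a 2-fold limit, the replicate block or an array left out. The fit was tested on simulated data.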

Additional observations from a re-analysis of the deposited data

How the results depend on the processing

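The count of primary cilium genes called is small and moved with the processing, whereas no gene passed the 4-fold limit in any setting; with a 2-fold limit Ift20 alone passed (1 higher, 0 lower). With a shift to the 75th percentile 0 rose and 0 fell, and the median difference became -0.041. Ift20, Kif7, Ttc8 and Bbs12 missed the limit narrowly there (limma adjusted p 0.0501 to 0.0505), as did Wdr19, which was well above background on no array. This shift moved the median over all named genes from -0.036 to -0.48. Its split over all probes was 1227 higher and 2658 lower, compared with 2589 and 2583. The median of genes well above background on every array moved from -0.071 to -0.113. The methods' Student test called 0 higher and 1 lower (1351 and 1197 of all probes). With only probes well above background on all arrays, 6 rose and 3 fell, compared with 2029 and 3726 of all 17963 probes. The median difference was 0.037 in the authors' table and 0.049 with the mean of all probes. With that mean Kif7 did not pass (-0.51, limma adjusted p = 0.46), Tulp3 did not in the authors' table (adjusted p = 0.0601), and neither Tulp3 (0.0856) nor Bbs9 (0.0698) did by adjusted p with trend and robust variance. With each array left out, 0 to 5 genes rose, 0 to 4 fell, and the median was -0.028 to 0.050. Each A+/G+ array left out took the count of rising genes to 0, and without A-/G+ replicate 3 it was 5, with 4 falling. The calls over all probes moved likewise. They were 816 to 1021 higher and 404 to 577 lower without an A+/G+ array, and 4437 and 4578 without A-/G+ replicate 3. The cause was not tested.

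Directions turned only for genes that had not passed. With the mean of all probes the differences were -0.21 for Ift46, -0.10 for Kif3a, 0.44 for Kif3b, 0.34 for Kif17, 0.66 for Bbs7, -0.26 for Tmem67, 0.0675 for Nphp4 and 0.13 for Inpp5e, where dim probes weigh as much as bright ones. With the shift they were -0.14 for Ift140 and -0.70 for Gpr161, with normexp -0.0165 for Ift140, 0.0656 for Kif3b and -0.0942 for Gpr161, and for Tctn3 0.037 in the authors' table and 0.0017 with outlier spots kept. With each array left out, the ranges that crossed 0 were -0.12 to 0.05 (Ift74), -0.18 to 0.0067 (Ift80), -0.10 to 0.29 (Ift88), -0.21 to 0.0305 (Ift122), -0.24 to 0.29 (Ift140), -0.0043 to 0.13 (Kif3a), -0.0031 to 0.0163 (Arl6), -0.0378 to 0.0596 (Tctn3), -0.23 to 0.12 (Mks1), -0.0708 to 0.0038 (B9d2), -0.16 to 0.54 (Cep290) and -0.87 to 0.70 (Gpr161).

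Whether the replicate numbers pair the samples could not be settled. The deviations of same-numbered samples correlated with 0.196, 0.113 and -0.113, and the samples are too few to decide it. The main fit did not pair them. With the replicate block 0 genes rose, 0 fell, and 0 of all probes were called. A slide block was not run, because each slide holds only 1 fraction. Signal over background limits Wdr19, Gpr161, Ift140 and Cep290.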
